A study of Homo sapiens with 6 samples.

Results

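The mitochondrial ribosomal protein genes were followed in cultured human cells by RNA-seq of 6 libraries. The labels give the cells as HBMEC, a brain microvascular endothelial cell line, but summed marker levels go against an endothelial identity. Epithelial markers summed to 2445 to 3060 CPM (read counts scaled to library size) over the libraries, and endothelial ones to 198 to 215 CPM. The sums cover 8 epithelial and 4 endothelial markers, whose median levels were nearer, at 47.4 and 33.5 CPM. The members are the genes whose Ensembl identifier maps to a protein-coding symbol starting with MRPL or MRPS, then a number and at most a letter A to C. The annotation holds 78 such genes, and 76 of them are among the 17104 genes of the count table, while MRPL23 and MRPL53 were not analysed here. The 3 control libraries carry the title code CON and the other 3 carry OGD, read here, with the study's title, as oxygen-glucose deprivation and reperfusion (OGD/R). This treatment models interrupted blood flow by taking oxygen and glucose away from the cells and restoring both. The labels give no length for either step and name no other difference between the groups. They also do not say whether replicates are separate cultures, so the p-values reflect only how far these 6 samples spread, and part of that spread may be technical.

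Mitochondria keep a small genome that codes for core subunits of the respiratory chain and for the RNAs of their own ribosome. All proteins of that ribosome, the mitoribosome, are encoded in the nucleus, made in the cytosol and imported, so that its assembly joins products of both genomes. A large subunit forms the peptide bonds and a small subunit reads the mRNA. Many of the proteins descend from bacterial ribosomal proteins, and others were acquired by the mitoribosome and have no counterpart in the bacterial ribosome.

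Most member genes shifted little, and those that changed mostly rose, each by less than 1.5-fold. The groups were compared with edgeR's quasi-likelihood test over all genes, and a gene was called higher or lower after OGD/R at a Benjamini-Hochberg adjusted p under 0.05. By that rule 24 of the 76 members (31.6%) were higher, beside 10.2% of all genes, and 2 (2.63%) were lower, beside 9.48% of all genes. The median log2 fold change of the members was 0.12, against -0.0046 over all genes, and 61 of the 76 members had a positive value. The called members changed by 0.17 to 0.49 on the log2 scale in absolute size. The count of higher members fell to 15 without control replicate 3, and the count of lower members was 1 without control replicate 3 or without OGD/R replicate 3. In RNA from a whole culture, fewer cells that carry a transcript and less of that transcript per cell cannot be told apart.

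Short transcripts rose across this whole comparison, and the members are short: their longest annotated transcripts had a median of 1738 nucleotides, against 3846 for 10844 well-expressed protein-coding genes. After each library's trend on transcript length and GC content was removed, 13 members (17.1%) were higher, beside 10.3% of all genes, and 7 (9.21%) were lower, beside 9% of all genes. The median log2 fold change of the members then was 0.04, against -0.015 over all genes, and 41 of the 76 values were positive. All 13 higher members were among the 24 of the uncorrected test, 11 lost the call, and 5 members were called lower only after the correction. With the length of the principal transcript in place of the longest one, 10 members were higher, beside 10.4% of all genes, and 6 were lower, beside 8.48% of all genes. Refitted with 1 library left out at a time, the length and GC correction gave 8 to 12 higher members, with 8 each without control replicate 1, control replicate 3 or OGD/R replicate 3. The number of lower members was then 4 to 7, with 4 without OGD/R replicate 2.

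**Figure D1:**
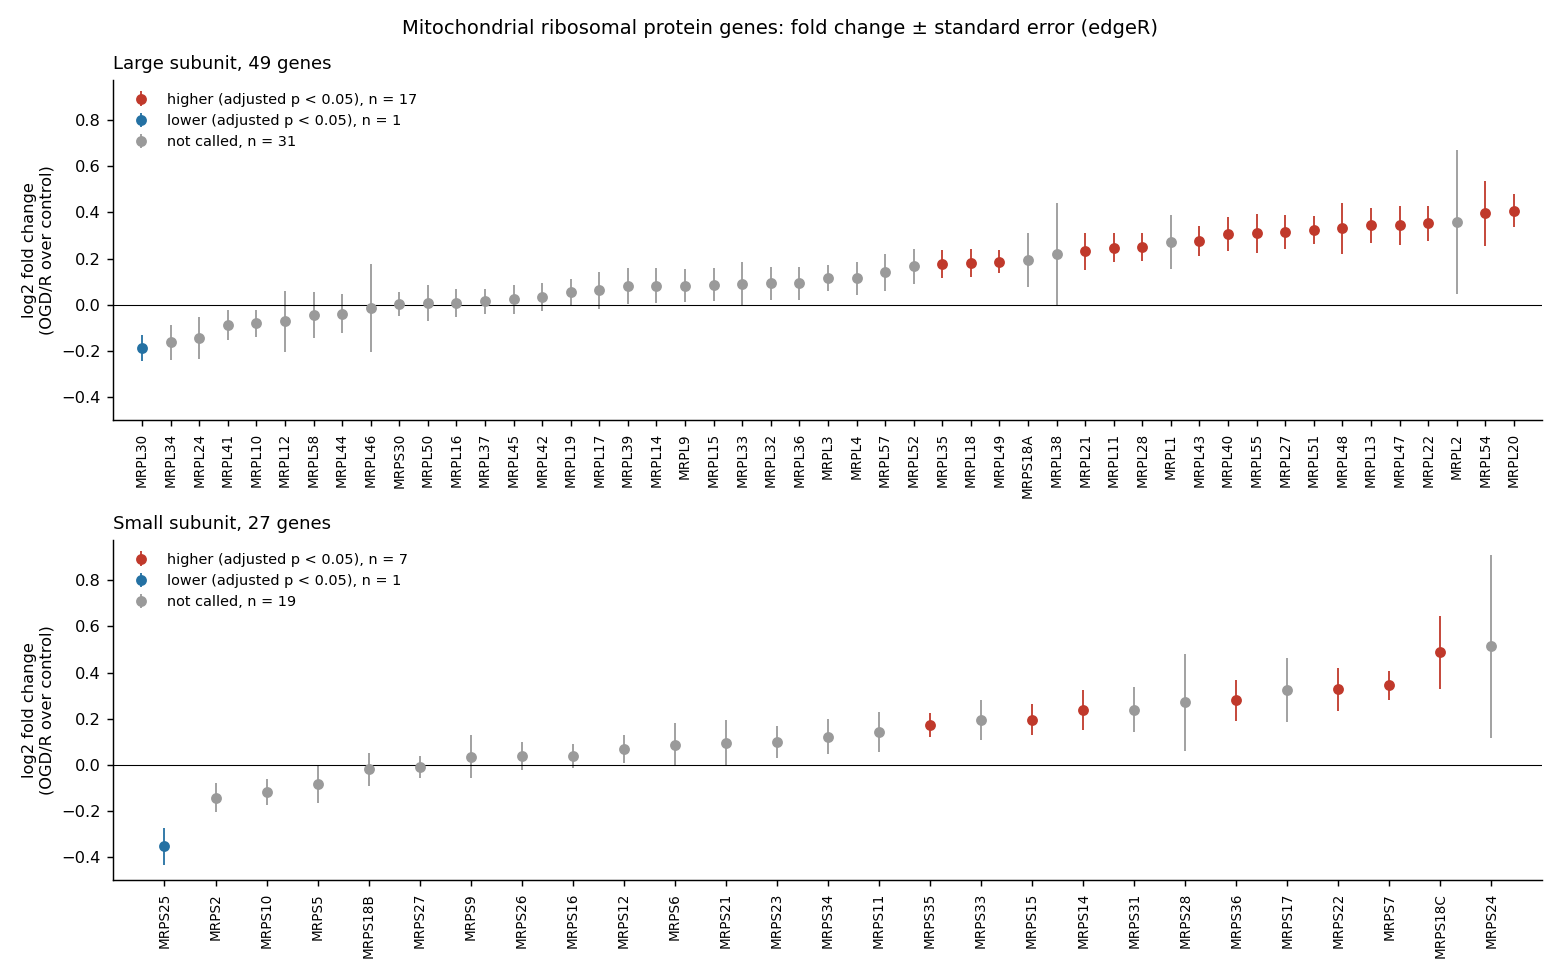
Log2 fold change of OGD/R over control (vertical axis) for each member gene, sorted within the large subunit (upper panel) and the small subunit (lower panel), with points for the edgeR estimate from 3 libraries per group and bars for its standard error. Red marks the 24 higher members, blue the 2 lower ones, and grey the 50 not called. Most points lie above 0 and no called member exceeds 0.49 in size.

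The stretches just before the annotated start of 4 genes show what their promoters look like. MRPL20, MRPL22 and MRPL11 rose and MRPS25 fell, and MRPL11 and MRPS25 hold none of the motifs searched. All 4 stretches were picked after the values of the genes were seen. They come from RefSeq on GRCh38.p14 and end before the first annotated exon base: chr1:1407314-1407543 for MRPL20 (minus strand), chr5:154940823-154941069 for MRPL22 (plus strand), chr11:66438849-66439098 for MRPL11 (minus strand) and chr3:15065336-15065565 for MRPS25 (minus strand). Each is written 5′ to 3′ on the gene's strand, and capitals mark a match to one of 3 motifs.
MRPL20: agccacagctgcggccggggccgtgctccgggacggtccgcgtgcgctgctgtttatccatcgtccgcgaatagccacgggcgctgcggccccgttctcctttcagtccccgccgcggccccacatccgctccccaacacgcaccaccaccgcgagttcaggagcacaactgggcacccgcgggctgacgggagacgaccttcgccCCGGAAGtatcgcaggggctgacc
MRPL22: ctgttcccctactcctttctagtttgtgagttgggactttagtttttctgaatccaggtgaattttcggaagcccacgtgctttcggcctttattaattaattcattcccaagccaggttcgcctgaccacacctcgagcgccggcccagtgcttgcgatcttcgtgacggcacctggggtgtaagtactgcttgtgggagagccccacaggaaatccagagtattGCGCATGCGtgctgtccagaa
MRPL11: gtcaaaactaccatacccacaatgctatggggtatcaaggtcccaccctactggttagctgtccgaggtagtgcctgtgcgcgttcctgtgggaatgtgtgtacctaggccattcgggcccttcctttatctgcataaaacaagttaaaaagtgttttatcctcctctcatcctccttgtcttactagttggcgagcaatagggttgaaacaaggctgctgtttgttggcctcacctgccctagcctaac
MRPS25: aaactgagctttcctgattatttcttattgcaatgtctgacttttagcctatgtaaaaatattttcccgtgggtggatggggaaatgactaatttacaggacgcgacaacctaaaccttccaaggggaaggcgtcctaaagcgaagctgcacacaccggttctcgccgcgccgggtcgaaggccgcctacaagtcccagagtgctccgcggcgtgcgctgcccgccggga

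The capitals in MRPL20 are the core CCGGAAG that ETS factors such as GABP bind, and those in MRPL22 are the core GCGCATGCG of NRF1. GABP (also called NRF2) and NRF1 are known for activating nuclear genes of mitochondrial proteins. The third motif was AAGATGGCG, a core of YY1, a factor known to act at transcription starts of such genes. Motifs were searched on both strands over 250 bases before to 50 bases after the start, in RefSeq windows that matched 68 members, and no hits of different motifs overlapped in member windows. MRPL20 has a further ETS match and MRPL22 a YY1 match in their windows outside the printed bases. The ETS core was found in 29 of 68 members (42.6%), against 21.4% of 11509 matched genes of the table. The YY1 core was found in 13 members (19.1%) against 4.34%, and the NRF1 core in 3 (4.41%) against 4.16%. Among the 20 matched members called higher, 12 held the ETS core (60%) and 1 the YY1 core (5%). Among the other 48 matched members, 17 held the ETS core (35.4%) and 12 the YY1 core (25%). The calls here are those of the fit without a length correction, and the difference between these sets of members was not tested. No background of matched GC content was used. A match is a run of letters in the window and not a measured binding site.

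Both subunits held members that rose and members that fell. The counts below stand beside 10.2% of all genes higher and 9.48% lower before the correction. After it, 10.3% of all genes were higher and 9% lower. Of the 49 large-subunit genes, 17 were higher and 1 lower, with a median log2 fold change of 0.11, and after the length and GC correction 12 were higher and 4 lower, with a median of 0.02. Of the 27 genes listed as small-subunit, 7 were higher and 1 lower, with a median of 0.12. After the correction 1 was higher and 3 lower, with a median of 0.04. The subunits were not tested against each other. Within the large subunit, 11 of 30 proteins with relatives in the bacterial ribosome were higher and 1 lower before the correction. After it, 8 were higher and 4 lower. Of the 19 large-subunit proteins without such relatives, 6 and then 4 were higher and none was lower in either fit. In the small subunit, 4 of 17 proteins with relatives in the bacterial ribosome were higher and none lower before the correction. After it, 1 was higher and 2 lower. Of the other 10, 3 were higher, MRPS36 among them, and 1 lower, and then none was higher and 1 lower. Membership follows the gene symbol. Whether the protein of MRPS36, or of any other member, is part of the mitoribosome was not tested.

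MRPL20 (ENSG00000242485), whose bacterial counterpart binds ribosomal RNA early in the assembly of the large subunit, had the largest rise among the large-subunit members. Its level in CPM was 30.8, 35.8 and 31.9 in control replicates 1 to 3 and 42.1, 44.6 and 44.2 in OGD/R replicates 1 to 3. The groups did not overlap, and the lowest OGD/R library lay well above the highest control. The log2 fold change was 0.41 ± 0.07 (SE, n = 3 per group, edgeR adjusted p = 1.38e-05), and it was 0.33 after the length and GC correction (adjusted p = 8.66e-05). MRPL20 passed in all 25 settings tried, with log2 fold changes of 0.23 to 0.48.

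MRPL22, the relative of a bacterial protein that lines the exit tunnel for the new chain, also rose. Control libraries had 24.9, 29 and 30.5 CPM, and OGD/R libraries had 35.0, 37.7 and 35.2 CPM. Control replicate 1 was the lowest of the 6, and every OGD/R library was above every control. The log2 fold change was 0.35 ± 0.08 (edgeR adjusted p = 0.00047), and 0.28 after the length and GC correction (adjusted p = 0.00341). Its exons share no base with another gene, and with 3176 nucleotides its longest transcript is exceeded among the higher members only by that of MRPL35.

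MRPL51, among the most abundant members per kilobase of transcript, had 72.6, 86.4 and 69.1 CPM in control and 89.9, 98.6 and 97.2 CPM after OGD/R. Control replicate 2 came close to the lowest OGD/R library but stayed below it. The resulting log2 fold change was 0.32 ± 0.06 (edgeR adjusted p = 0.000246), and 0.18 after the correction (adjusted p = 0.00479). MRPL51 has no bacterial counterpart. Of its exon bases, 31.3% are shared with other genes on either strand, the largest part with NCAPD2 on the opposite strand. No source used here states whether counting used strand, so reads of such pairs cannot be told apart.

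Of the other large-subunit proteins picked for their rise or small p, MRPL13, MRPL43 and MRPL27 rose and kept the call after the length and GC correction, while MRPL54 and MRPL47 rose but lost it. MRPL13 had 50.1, 49.9 and 44.4 CPM in control and 52.0, 64.4 and 67.1 CPM after OGD/R, so OGD/R replicate 1 lay just above the highest control. This gave a log2 fold change of 0.34 ± 0.07 (edgeR adjusted p = 0.00103) and 0.22 after the correction. MRPL43 had 40.2, 39.9 and 39.3 CPM against 45.9, 48.0 and 51.0 CPM, a tight control group below 3 higher libraries, with a log2 fold change of 0.28 ± 0.06. Other genes share 36.9% of its exon bases, the largest part from SEMA4G on the opposite strand. MRPL27, whose bacterial counterpart reaches towards the peptidyl transferase centre, had 27.5, 33.4 and 28.5 CPM against 36.2, 37.6 and 37.4 CPM, with a log2 fold change of 0.32 ± 0.07. For these 3 genes the call was lost when the principal transcript gave the length, with adjusted p-values of 0.0578, 0.0764 and 0.157.

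MRPL54 and MRPL47 did not keep their calls once length and GC content were accounted for. MRPL54, with the shortest transcript of all members at 626 nucleotides, had 5.72, 7.39 and 6.23 CPM in control and 8.02, 9.11 and 8.35 CPM after OGD/R. Its groups did not overlap, and its log2 fold change went from 0.40 ± 0.14 (edgeR adjusted p = 0.0386) to 0.21 (adjusted p = 0.319). Leaving out control replicate 1 or 3, or OGD/R replicate 2 or 3, also ended its call, with adjusted p-values of 0.165, 0.121, 0.161 and 0.0766. MRPL47, a conserved protein near the tunnel exit, had 23.5, 21.8 and 20.8 CPM against 27.1, 26 and 30.7 CPM, groups that did not overlap. With the correction, a log2 fold change of 0.34 ± 0.08 became 0.16 (adjusted p = 0.16).

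MRPL30 was the only large-subunit member called lower without the correction. It had 63.4, 62.3 and 64.8 CPM in control and 58.2, 56.9 and 52.2 CPM after OGD/R. Every OGD/R library was below every control, with OGD/R replicate 3 the lowest. The log2 fold change was -0.19 ± 0.06 (edgeR adjusted p = 0.0164) and -0.27 after the length and GC correction (adjusted p = 0.000135). Without control replicate 3 the adjusted p was 0.0879, and without OGD/R replicate 3 it was 0.147. Its exons share 19.5% of their bases with other genes, the largest part with a gene on the same strand.

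The large-subunit members called lower only after the correction were MRPL34, MRPL24 and MRPL10. MRPL34 had 31.1, 39.1 and 34.2 CPM in control and 31.2, 30.9 and 31.1 CPM after OGD/R. Control replicate 1 was level with the OGD/R libraries, so its groups overlapped. Uncorrected, it had a log2 fold change of -0.16 (edgeR adjusted p = 0.134), and corrected one of -0.31 (adjusted p = 0.000463). MRPL24 had corresponding values of -0.14 and -0.29, and MRPL10, which anchors the stalk on which elongation factors dock, had -0.08 and -0.15. MRPL10 passed narrowly (adjusted p = 0.0489) and did not pass with principal transcripts (adjusted p = 0.0684), and it was called lower in 2 of 25 settings. The longest transcripts of the 3 genes have 968, 990 and 2013 nucleotides.

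The most abundant member per kilobase of principal transcript was MRPL37, with a mean of 74.5 CPM per kilobase, followed by MRPL51 with 69.4 and MRPL18 with 59.0. MRPL37 was high in control replicate 2, at 123 CPM, and lay between 103 and 113 CPM in the other 5 libraries. Its log2 fold change was 0.02 ± 0.05 (edgeR adjusted p = 0.892), and it was -0.08 after the correction and -0.01 with total-count scaling, none of them called. MRPL18, whose bacterial counterpart binds the small 5S ribosomal RNA, had 53.3, 56.8 and 52.3 CPM in control and 56.1, 62.8 and 65.1 CPM after OGD/R. OGD/R replicate 1 fell inside the control range. MRPL18 had a log2 fold change of 0.18 ± 0.06 (edgeR adjusted p = 0.0299) and 0.02 after the correction (adjusted p = 0.878). Its call was also lost without control replicate 1 or 3, or OGD/R replicate 2 or 3, with adjusted p-values of 0.0785, 0.144, 0.129 and 0.205.

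**Figure D2:**
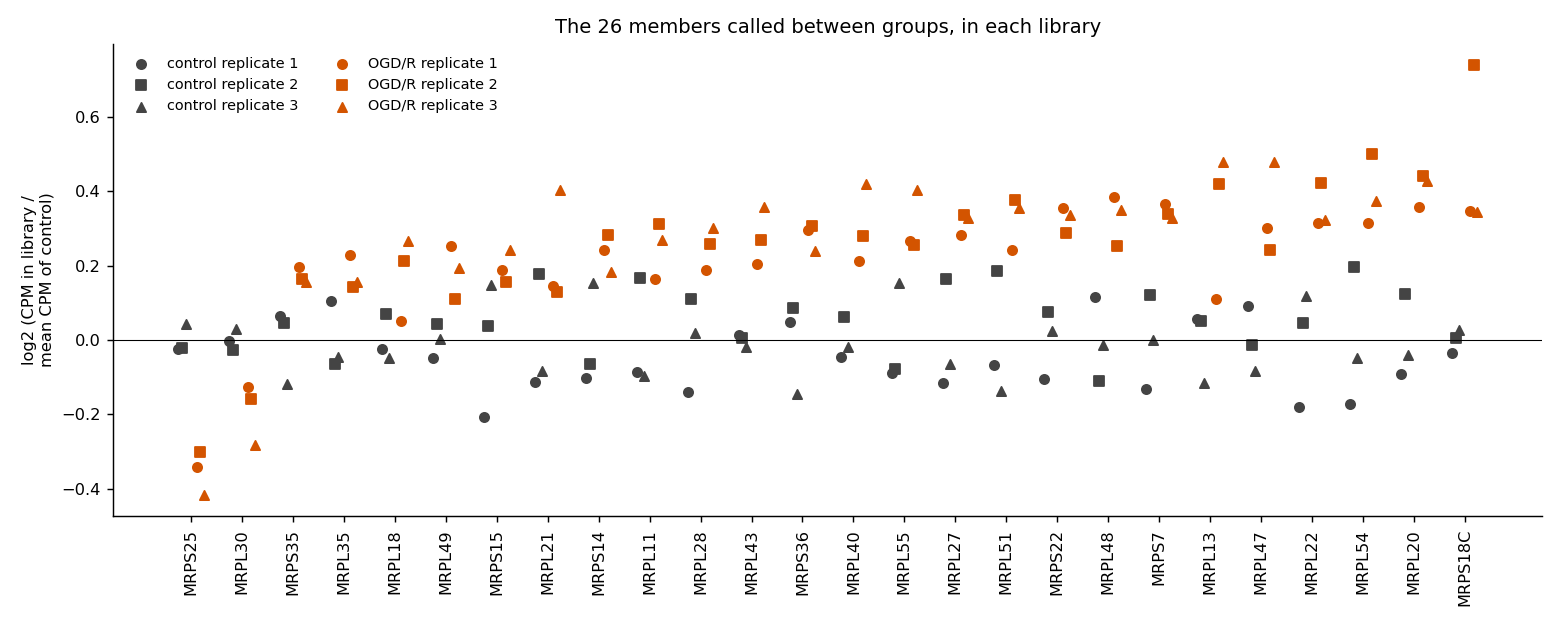
Level of each of the 26 called members in each library, as log2 of its CPM over the mean CPM of the 3 control libraries (vertical axis), with members sorted by fold change along the horizontal axis. Grey symbols are control libraries and orange ones OGD/R libraries, with the shape giving the replicate number. The groups separate for 23 of the 26 members and overlap for MRPL11, MRPL21 and MRPL18.

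In the small subunit, MRPS7 (ENSG00000125445) had the smallest p. Its bacterial counterpart binds ribosomal RNA in the head of the subunit, where tRNAs pass. Control libraries had 45.2, 53.9 and 49.6 CPM, and OGD/R libraries had 63.9, 62.7 and 62.2 CPM. The OGD/R libraries were close together and all above the controls. MRPS7 had a log2 fold change of 0.34 ± 0.06 (edgeR adjusted p = 2.9e-05) and 0.25 after the correction (adjusted p = 0.000402). MRPS7 was the one small-subunit member that stayed higher after the correction, and it passed in all 25 settings tried. Its exons share 10.8% of their bases with other genes, the largest part with GGA3 on the opposite strand.

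MRPS25, a small-subunit protein without a bacterial counterpart, had the largest fall. It had 27.4, 27.5 and 28.7 CPM in control and 22.0, 22.6 and 20.9 CPM after OGD/R. The groups were each tight and did not overlap. The log2 fold change was -0.35 ± 0.08 (edgeR adjusted p = 0.000928) and -0.33 after the correction (adjusted p = 0.00109), and the gene was called lower in all 25 settings tried. Its longest transcript has 4586 nucleotides, in a class of genes of similar length (4430 to 5155 nucleotides) whose median log2 fold change was -0.03. Exons of other genes share 22.2% of the exon bases of MRPS25, the largest part from NR2C2 on the opposite strand.

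MRPS2 and MRPS10, conserved proteins of the small subunit, were called lower only after the correction. MRPS10 had 68.1, 67.5 and 63.9 CPM in control and 61.1, 63.6 and 59.6 CPM after OGD/R, groups separated by a narrow margin. Uncorrected, the log2 fold change was -0.12 (edgeR adjusted p = 0.156) and corrected it was -0.23 (adjusted p = 0.000484). MRPS2 had -0.14 and -0.20.

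MRPS18A, MRPS18B and MRPS18C are paralogs related to 1 bacterial protein, of which MRPS18A sits in the large subunit of the mitoribosome, and only MRPS18C was called. MRPS18C had 4.84, 4.97 and 5.05 CPM in control and 6.30, 8.26 and 6.29 CPM after OGD/R. OGD/R replicate 2 stood above the other two, and all were above the controls. The log2 fold change of 0.49 ± 0.16 was the largest of any called member (edgeR adjusted p = 0.0213), and it was 0.38 after the correction (adjusted p = 0.0806). Without OGD/R replicate 2 the adjusted p was 0.205, without control replicate 1 it was 0.0611 and without control replicate 3 it was 0.0547. MRPS18A had a log2 fold change of 0.19 ± 0.12 and MRPS18B of -0.02 ± 0.07, neither called. The exons of MRPS18C and MRPS18A share 40.2% and 47.0% of their bases with other genes, the largest part with genes on the opposite strand. The differences among the 3 paralogs were not tested.

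Of further members picked by name, MRPL12, the stalk protein on which elongation factors dock and a reported partner of the mitochondrial RNA polymerase, was not called, with 7.68 to 10.9 CPM in control and 7.93 to 9.57 CPM after OGD/R. Its log2 fold change was -0.07 ± 0.13 (edgeR adjusted p = 0.78). Of its exon bases, 68.2% are shared with other genes, the largest part with a gene on the same strand. MRPL3, near the peptidyl transferase centre, had 63.4, 73.3 and 67.1 CPM against 71.6, 76.2 and 73.0 CPM, groups that overlap through control replicate 2. Its log2 fold change was 0.11 ± 0.06 (adjusted p = 0.161), which became 0.18 (adjusted p = 0.0301) without that library and -0.02 after the length and GC correction.

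MRPL58, a peptidyl-tRNA hydrolase that frees stalled mitoribosomes, had a log2 fold change of -0.04 ± 0.10, and MRPL44, a relative of RNase III enzymes linked to inherited cardiomyopathy, had -0.04 ± 0.09. MRPS30, which despite its name sits in the large subunit, ranged from 77.5 to 82.1 CPM over all 6 libraries, with a log2 fold change of 0.0055 ± 0.05. MRPS12, at the decoding centre, had 0.07 ± 0.06, and MRPS28, a relative of bacterial protein S1, had 0.27 ± 0.21 at levels of 2.51 to 3.66 CPM. None of these 5 was called, and exons of other genes share 35.8% of the exon bases of MRPS28. MRPS22, linked to inherited mitochondrial disease, had 15.0, 17.0 and 16.4 CPM in control and 20.6, 19.7 and 20.3 CPM after OGD/R, groups that did not overlap. Its log2 fold change was 0.33 ± 0.09 (edgeR adjusted p = 0.00801), and 0.21 after the correction, when the call was lost (adjusted p = 0.1).

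Across all members, the 3 libraries of a group did not overlap with the other group for 24 members that were higher after OGD/R, beside 16.4% of all genes, and for 3 that were lower, beside 16.6% of all genes. The sets differ a little from the called ones: MRPS17, MRPS11 and MRPL32 separated upward and MRPS10 downward without a call. The summed level of the 76 members was 2752, 2954 and 2753 CPM in control replicates 1 to 3 and 2970.5, 3066 and 3067 CPM in OGD/R replicates 1 to 3. Control replicate 2 stood above the other controls and only just below OGD/R replicate 1. The group means were 2819 ± 116 CPM and 3034 ± 55.4 CPM (SD, n = 3 each). The length and GC trend alone, as a median over the members, moved with the groups: it was -0.02, 0.04 and -0.01 in the controls and 0.09, 0.11 and 0.09 in the OGD/R libraries on the log2 scale. Once it was removed, the median member stood at -0.02, 0.02 and -0.03 in the controls and at -0.03, 0.04 and 0.05 in the OGD/R libraries, which overlap. What sets the length trend was not tested.

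**Figure D3:**
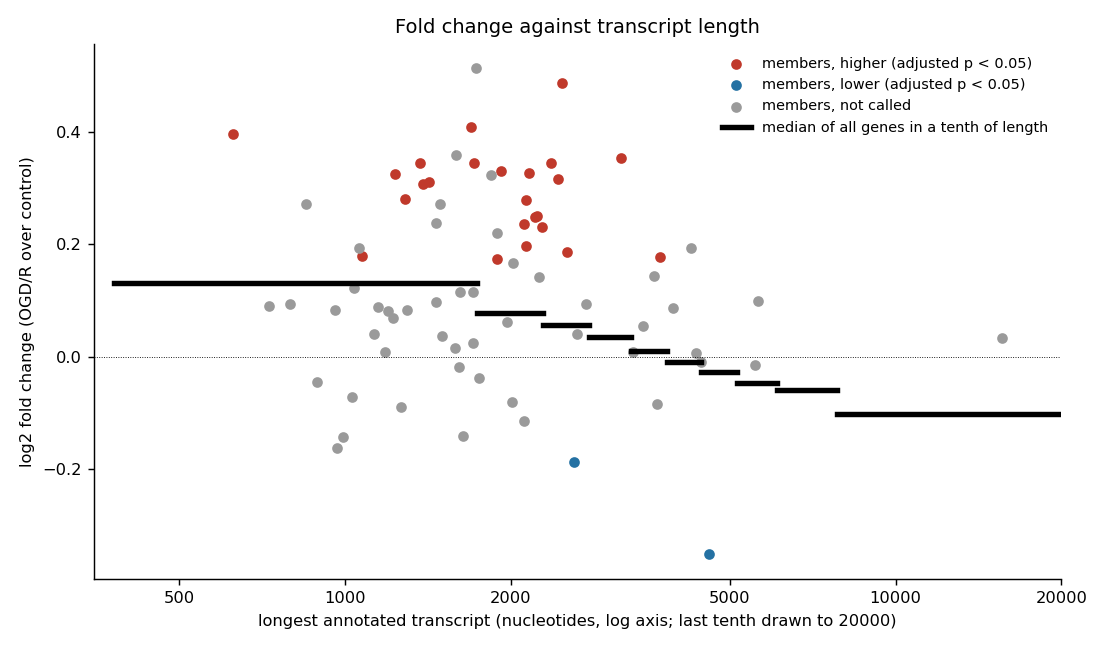
Log2 fold change (vertical axis) of each member against the length of its longest annotated transcript in nucleotides (horizontal log axis), with red, blue and grey for higher, lower and not called. Black bars give the median of the well-expressed protein-coding genes in each of 10 length classes with nearly equal numbers of genes, which runs from 0.13 in the shortest class to -0.10 in the longest. Members scatter on both sides of the bars at the short end and mostly above them between 1739 and 2773 nucleotides.

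Beside other genes of their own length, the members differed from class to class, and these differences were not tested. Of the members in the well-expressed gene set, 35 lay in the shortest of 10 length classes (381 to 1738 nucleotides), where their median log2 fold change was 0.09 against 0.13 for all genes of that class. Of those 35, 9 were higher, beside 33.5% of all genes there. In the next class (1739 to 2289 nucleotides) the median of 16 members was 0.21 against 0.08, and 9 of the 16 were higher, against 25.1% of all genes. In the following one (2290 to 2773 nucleotides) the median of 7 members was 0.19 against 0.06, with 4 higher and 1 lower, beside 20.9% and 7.49% of all genes. Longer classes held at most 5 members each, and in the class of MRPS25 (4430 to 5155 nucleotides) the median of 2 members was -0.18 against -0.03. Over the 76 members Spearman's rho between fold change and longest transcript was -0.03, and with the principal transcript it was -0.17. Over the 10844 genes it was -0.36 with the longest transcript, all of these across genes of the same libraries. After the length and GC correction, rho over the members was 0.27 with the longest transcript and 0.0041 with the principal one. For 44 members the longest transcript is also the principal one, but for 12 it is over 2 times as long, and 5 of the 13 members called higher with the longest length were not called with the principal one.

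**Figure D4:**
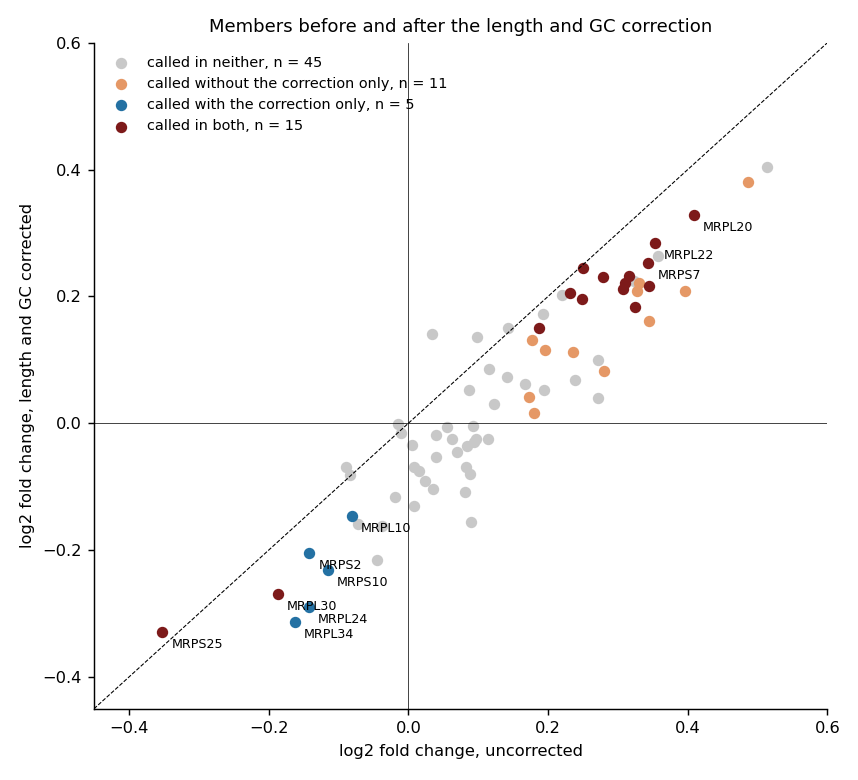
Log2 fold change of each member without (horizontal axis) and with (vertical axis) the length and GC correction, with the dashed line marking equal values. Dark red marks the 15 members called both ways, orange the 11 called only without the correction, blue the 5 called only with it and grey the 45 called in neither. Most points lie below the line, and MRPS25 lies just above it.

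In all, 8 members were higher in the uncorrected fit and under both length corrections: MRPL20, MRPL22, MRPS7, MRPL51, MRPL40, MRPL28, MRPL11 and MRPL49. MRPS25 and MRPL30 were lower in all of them. MRPL22 and MRPL40 are the only ones of the 8 with no exon base shared with another gene. Exon sharing touches 39 of the 76 members. Of the 37 members without it, 12 were higher and none lower before the correction, and 5 were higher and 3 lower after it. The shares over all genes were 10.2% and 9.48% before the correction and 10.3% and 9% after it. The median level of those 37 members was 29.4 CPM per kilobase, and that of the 8 members with more than 30% shared was 9.44 CPM per kilobase. All 5 members under 5 CPM share between 11.3% and 41.1% of their exon bases. One of them, MRPS24, which overlaps a read-through transcript with its neighbour URGCP, had the largest log2 fold change of the family, 0.51 ± 0.40, without passing (edgeR adjusted p = 0.415). Named pseudogenes exist for 33 members, and no source used here states how reads that match several places were counted.

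Genes that work with the mitoribosome showed a mixed picture. Over all genes, 10.2% were higher and 9.48% lower, and 10.3% and 9% after the length and GC correction. Mitoribosome proteins that carry other symbols had 2 of 5 higher and none lower, AURKAIP1 (log2 fold change 0.22) and PTCD3 (0.15). Of 26 measured assembly factors, 3 were higher and 1 lower, with a median of -0.0058, and after the length and GC correction none was higher and 4 were lower. C1QBP (0.17) and RPUSD3 (0.20) were among the 3, and both lost the call with the correction. Of 17 translation factors, 4 were higher and none lower in each fit, with 1 gene exchanged: GFM2 lost the call with the correction (edgeR adjusted p = 0.112) and MRRF gained it (adjusted p = 0.00482). SLIRP (0.47), which steadies mitochondrial mRNAs, and the elongation factor TUFM (0.16) were higher in both. Of 20 mitochondrial tRNA synthetases, 2 were higher, among them IARS2 (0.14), and 2 were lower, in both fits, near the shares over all genes. Several of these calls were lost when 1 library was left out. The edgeR adjusted p of PTCD3 was 0.173 without control replicate 3, 0.215 without OGD/R replicate 2 and 0.122 without OGD/R replicate 3. That of RPUSD3 was 0.187 without control replicate 1, 0.126 without OGD/R replicate 1 and 0.0908 without OGD/R replicate 2. IARS2 had 0.126 without control replicate 3 and 0.0687 without OGD/R replicate 3, C1QBP had 0.0568 without OGD/R replicate 2, and TUFM had 0.0881 without control replicate 1.

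Among the genes for mitochondrial transcription and its nuclear regulators, none of 13 measured was higher and 3 were lower: PPARGC1B, PPRC1 and MYC. Of all genes, 10.2% were higher and 9.48% lower. PPARGC1B, a coactivator of genes for mitochondrial proteins, had 21.6, 21.9 and 25.7 CPM in control and 15.3, 17.2 and 16.2 CPM after OGD/R. Its groups did not overlap, and its log2 fold change was -0.51 ± 0.09 (edgeR adjusted p = 3.95e-05). The related coactivator PPRC1 had -0.23 ± 0.05 (edgeR adjusted p = 0.000959), and MYC, a transcription factor known to drive ribosome production, had -0.18 ± 0.06 (edgeR adjusted p = 0.0191). All 3 remained lower after the correction.

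Respiratory chain subunits and cytosolic ribosomal proteins mostly rose. For all genes the shares were 10.2% higher and 9.48% lower, and 10.3% and 9% after the correction. With principal transcripts they were 10.4% and 8.48%. Of 76 nuclear-encoded respiratory chain genes, 48 were higher and none lower, with a median log2 fold change of 0.23, and after the correction 25 were higher, with a median of 0.11, or 21 and 0.10 with principal transcripts. NDUFS5 (0.48), a subunit of complex I, and COX6B1 (0.41), of complex IV, had the smallest p-values of that list. Of 79 cytosolic ribosomal proteins, 44 were higher and none lower, with a median of 0.17, and after the correction 28 were higher and 2 lower, with a median of 0.07. With principal transcripts 17 were higher and 4 lower, with a median of 0.04. In the uncorrected fit RPS26 (0.54) and RPL21 (0.33) had the smallest p-values of the list. Of 15 mitochondrially encoded genes, 6 were higher and 1 lower, and after the correction 1 was higher and 8 were lower. The correction's trend was fitted without these 15 genes, so their corrected values carry over a trend of nuclear genes. Whether that trend holds for them was not tested. Uncorrected, the lower gene was MT-RNR2, the RNA of the mitoribosome's large subunit (-0.24 ± 0.04, edgeR adjusted p = 1.03e-05, and -0.39 after the correction). MT-RNR1, the RNA of the small subunit, was not called (-0.02) but was lower after the correction (-0.21, edgeR adjusted p = 3.24e-06). MT-CO2 (0.35) stayed higher, and MT-CO3 (0.30) did not (edgeR adjusted p = 0.0554), both of them subunits of complex IV. The differences between these lists and the members were not tested. Over these lists, including the regulators and factors, 109 genes were higher and 7 lower, and 70 were higher without control replicate 1. The number of lower ones was 4 without control replicate 3, OGD/R replicate 2 or OGD/R replicate 3.

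**Figure D5:**
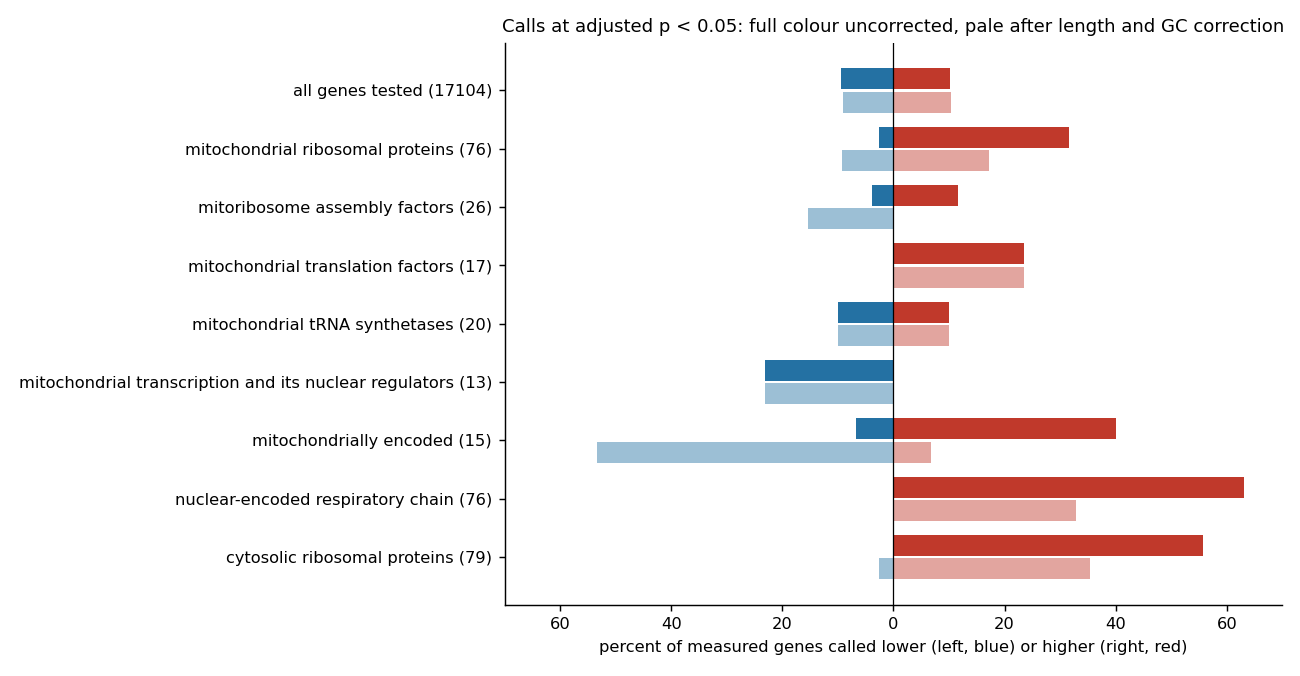
Percent of measured genes called lower (blue, to the left of 0) or higher (red, to the right) after OGD/R at an edgeR adjusted p under 0.05, for all genes, the members and related lists, with the number of genes in brackets. Full colours are uncorrected and pale ones follow the length and GC correction, whose trend was fitted without the mitochondrially encoded genes. The bar of higher members shortens from 31.6% to 17.1% with the correction, and that of lower members lengthens from 2.63% to 9.21%.

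The libraries were of similar depth, with 31048662 to 34484647 counts, and mitochondrially encoded genes took 4.94% to 5.33% of them. Members had mean levels of 0.893 to 112 CPM, with a median of 33.2, and 67 of the 76 were above 10 CPM. Of the 12 endothelial markers, 4 are in the count table (CDH5, ROBO4, ESAM and EGFL7), and the other 8 were not analysed here. CDH5 rose (log2 fold change 0.81, edgeR adjusted p = 2.71e-07) and ROBO4 fell (-0.75, adjusted p = 0.00107), while ESAM and EGFL7 were not called. Of the 12 epithelial markers, 8 are in the table, and KRT8 (0.33), KRT18 (0.18), KRT7 (0.17) and KRT17 (2.03, at 1.46 CPM or less) were higher after OGD/R. The 3 fibroblast and mural markers in the table summed to 13.7 to 19.4 CPM and the 2 leukocyte markers to 3.81 to 6.0 CPM. The part of cell makeup in the member results was not tested.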

How the data were processed

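The deposited values are raw read counts per Ensembl gene, 1 column per library. The submitters' processing notes name Trimmomatic, HISAT2, SAMtools, featureCounts and edgeR without versions or settings, and a mouse build, GRCm38, although the identifiers are human. Which build the counts rest on is uncertain, so coordinates are given only for RefSeq promoter windows. The table appears filtered before deposit: filterByExpr, with its minimum count of 10, removed 0 of 17104 genes, of which 17093 matched a symbol. Libraries differed by more than sampling noise (chi-square per degree of freedom 4.07 to 7.43 within groups), so all 6 were kept.

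Groups and replicate numbers come from the titles. Counts were TMM-scaled and tested with edgeR 4.0.16 (R 4.3.3), quasi-likelihood, robust, two-sided, over all genes with Benjamini-Hochberg adjustment at 0.05, without a replicate block. The common biological coefficient of variation was 6.26%. Scaling makes levels relative to all other RNA. The script was tested on simulated data. For the length correction, the longest GENCODE 29 transcript stood for each gene, and a smooth trend (mgcv 1.9.3) on its log2 length and GC content was fitted per library on 10846 protein-coding genes with average log2 CPM above 2 and entered as an offset. Mitochondrially encoded genes were left out of that fit, and lengths and GC contents beyond its range were set to its limits. The correction was repeated with APPRIS principal transcripts, a choice made after seeing the data. CPM per kilobase uses the principal transcript.

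The members and lists were chosen with earlier results of these data known. Named members are the 6 largest rises and falls among called members with a mean of at least 5 CPM and the 4 smallest remaining p-values. The 3 most abundant per kilobase and 11 fixed names were added, with some of those called only with or without the correction. The 2 smallest p-values of each related list were named too. A gene that this rule picked is not reported here. Others were named after their values were seen. Alternatives were scaling by RLE, by the upper quartile and by total counts, limma-voom (limma 3.58.1), DESeq2 1.42.0, 2 filters, leaving out mitochondrially encoded genes, the length corrections, the replicate number as a block, and leaving out each library.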

Additional observations from a re-analysis of the deposited data

How the results depend on the processing

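RLE and upper-quartile scaling, DESeq2, limma-voom, a filter of 1 CPM in 3 libraries and leaving out mitochondrially encoded genes kept the counts of members within 1.5 times and the direction and call of each named gene. With no filter the genes tested were the same. Total-count scaling gave 18 higher and 3 lower members and ended the calls of MRPL54, MRPL18, PTCD3 and RPUSD3. Principal transcripts ended that of SLIRP, and length alone those of AURKAIP1 and TUFM. The replicate number as a block gave 24 higher and 2 lower members, as without it, and changed no call of a named gene. Same-numbered libraries did not deviate together (r of -0.013, 0.077 and -0.047), so the numbers were not taken as pairs.

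Higher members numbered 13 with the length and GC correction, 14 with that and the block, 10 with principal transcripts and 16 with length alone. Lower members numbered 7, 7, 6 and 7 in that order, and the median of the members was 0.041, 0.044, 0.044 and 0.052. With 1 library left out, higher members ranged from 8 to 25, lower ones from 1 to 7 and the median from 0.018 to 0.175, corrected fits included. Of members without exon overlap, 0% were lower in the uncorrected fit, and 3 of 37 were lower with the length and GC correction. Related genes higher numbered 62 (length and GC), 67 (length) and 49 (principal), and 70 to 141 with 1 library left out. Related genes lower numbered 11 with total counts, 19, 13 and 18 with those corrections, 21 with correction and block, and 4 to 7 with 1 library left out.

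Named genes whose sign reversed were not called where it did. MRPL37 had -0.014 with total counts, -0.076 with length and GC, -0.079 with length, -0.073 with the block added and -0.056 with principal transcripts. MRPL3 had -0.025 with length and GC, -0.023 with the block added and -0.0042 with principal transcripts. MRPS30 had -0.025 with total counts, -0.034 with length and GC, also with the block added, and -0.0902 with principal transcripts. MRPS12 had -0.046 with length and GC, -0.057 with length, -0.045 with the block added and -0.023 with principal transcripts. With 1 library left out, values ran from -0.027 to 0.11 for MRPL37, -0.18 to 0.0698 for MRPL12, -0.099 to 0.023 for MRPL58, -0.049 to 0.039 for MRPS18B, -0.011 to 0.0302 for MRPS30 and -0.0796 to 0.013 for MRPL44. The cause of these changes was not tested. Low counts limit the 5 members under 5 CPM most, and 3 libraries a group limit small changes.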
